A study of Mus musculus with 8 samples.

Results

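Integrins are the adhesion receptors that macrophages and osteoclasts use to hold on to matrix and to other cells. Each is a pair of an alpha and a beta subunit made from separate genes. Described here are 10 integrin genes, chosen by symbol from the 25124 genes of the table: Itgav, Itgb3, Itgb5, Itgb1 and Itga2, whose products bind matrix, and Itgb2, Itgam, Itgal, Itgax and Itgb7, whose products belong to the leukocyte integrins. Their mRNA levels were followed in mouse osteoclast precursors treated with the osteoclast cytokine RANKL, with extracellular peroxiredoxin 1 (PRDX1), with both, or with neither.

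The alpha-v and beta-3 subunits form the vitronectin receptor of osteoclasts, which recognizes RGD motifs in osteopontin and other bone matrix proteins and organizes the ring of adhesion that seals the cell to bone. Beta-3 is a textbook marker of the mature osteoclast, while its relative beta-5, another partner of alpha-v, is found in the macrophage-like precursors. The beta-2 subunit is restricted to leukocytes and pairs with alpha-M (Itgam, CD11b), alpha-L (Itgal, CD11a) and alpha-X (Itgax, CD11c) to bind ICAMs and complement C3 fragments. Beta-7 pairs with alpha-4 or alpha-E and is best known from lymphocytes that home to the gut.

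The RNA came from 8 cultures in 4 groups of 2: no PRDX1 + no RANKL, PRDX1 + no RANKL, no PRDX1 + RANKL, and PRDX1 + RANKL. All cultures were osteoclast precursors from bone marrow, labelled as C57BL/6 mice of 6 to 8 weeks, whereas the study's methods name male ICR mice for such cells. Nonadherent marrow cells taken after 16 h in 5 ng/mL M-CSF were grown for 3 days in 30 ng/mL M-CSF, and the adherent cells were then treated for 48 h, M-CSF at 30 ng/mL being present in every group. PRDX1, where added, was 200 nM of a recombinant His-tagged protein made in bacteria and passed over an endotoxin removal resin, and RANKL was 100 ng/mL. The labels name no separate animals for the 2 cultures of a group, so p-values measure the spread between cultures, which may be technical.

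Levels are FPKM, fragments per kilobase of transcript and per sequencing depth, so that they can be compared between genes. Library totals lay between 27284653 and 46171822 reads. Differences were tested with limma on log2(FPKM + 1) over 11700 genes with a mean of at least 0.5 FPKM, and a gene is said to have risen or fallen where the Benjamini-Hochberg adjusted p was under 0.05 and the fold on that scale at least 1.5. An exact permutation test of 2 against 2 libraries cannot give a p below 0.333. The cultures carried macrophage mRNAs in every group: the macrophage receptor gene Adgre1 had between 220.3 and 527.2 FPKM and Csf1r, the M-CSF receptor, between 241.4 and 513.9. The summed FPKM of 12 macrophage markers was 16038 to 17857 with neither agent, 16788 to 17224 with PRDX1, 9761 to 10196 with RANKL and 13395 to 13799 with both. The sum of 14 osteoclast markers was 221 to 230, 343 to 354, 2194 to 2325 and 511 to 531 in the same order. In bulk RNA, fewer cells of a type and less RNA per cell cannot be told apart.

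Itgb3, the beta subunit of the osteoclast vitronectin receptor, had the widest range of the 9 members that could be tested. It stood at 1.805 and 1.948 FPKM with neither agent, at 0.714 and 0.610 with PRDX1, at 20.55 and 22.82 with RANKL, and at 1.526 and 1.585 with both. The 4 groups did not overlap, and the libraries with both agents lay below those with neither. RANKL without PRDX1 raised the mean 11.6-fold (log2 fold change 2.98 ± 0.09 SE, limma adjusted p = 2.03e-09). PRDX1 lowered it 13.9-fold beside RANKL (log2 fold change -3.15 ± 0.09, limma adjusted p = 9.04e-09) and 2.83-fold without RANKL (-0.79 ± 0.09, limma adjusted p = 1.32e-04). The 2 changes by PRDX1 differed by -2.36 ± 0.13 on the log2 scale (limma adjusted p for the interaction 1.87e-06). RANKL still raised Itgb3 2.35-fold where PRDX1 was present (0.62 ± 0.09, limma adjusted p = 4.27e-04), a change just past the 1.5-fold threshold on the log2(FPKM + 1) scale. With a pseudocount of 0.1 this log2 fold change was 1.123 and with voom on recovered reads 1.255. The call on the log2(FPKM + 1) scale was lost under quantile normalization, upper quartile scaling and without the second PRDX1 + no RANKL library, where the log2 fold change was 0.581, 0.580 and 0.576. The lowest library held 124 Itgb3 reads and the highest 4543, on NM_016780, chr11:104608000-104670471 of mm10.

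Itgav, the alpha subunit that pairs with beta-3 and beta-5, moved much less than Itgb3. Its 8 values were 20.88 and 20.74 FPKM with neither agent, 25.90 and 26.22 with PRDX1, 39.42 and 39.57 with RANKL, and 27.65 and 27.82 with both. No groups overlapped, and RANKL alone stood above the rest. The gene rose 1.90-fold with RANKL (log2 fold change 0.89 ± 0.05, limma adjusted p = 1.69e-07). The difference with PRDX1 was 0.31 without RANKL (adjusted p = 0.00115) and -0.49 beside RANKL (adjusted p = 2.88e-05), both under the 1.5-fold threshold in limma. The sign of the PRDX1 difference thus turned with RANKL, and the interaction was -0.81 ± 0.07 (limma adjusted p = 3.51e-05). With PRDX1 present, the RANKL difference was 0.09 (adjusted p = 0.190). Itgav shares 634 exon bases with the antisense gene Gm13684 in GENCODE M21, and the counting did not use strand, so reads of the pair cannot be told apart there.

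Itgb5, a further beta partner of alpha-v, ran against Itgb3 with RANKL. It had 89.24 and 90.27 FPKM with neither agent, 91.24 and 97.35 with PRDX1, 33.92 and 35.08 with RANKL, and 51.20 and 52.71 with both. RANKL lowered it 2.60-fold without PRDX1 (log2 fold change -1.35 ± 0.05, limma adjusted p = 8.84e-09) and 1.82-fold with it (-0.85 ± 0.05, limma adjusted p = 1.13e-06). Beside RANKL, the difference with PRDX1 was 0.58 ± 0.05 (limma adjusted p = 1.12e-05), a fold of 1.49 on the tested scale that lay just under the threshold. It passed under quantile normalization, upper quartile scaling, a pseudocount of 0.1, and without the second no PRDX1 + RANKL or the first PRDX1 + RANKL library (0.633, 0.605, 0.589, 0.600 and 0.597). Without RANKL the difference by PRDX1 was 0.07 (limma adjusted p = 0.339).

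**Figure D1:**
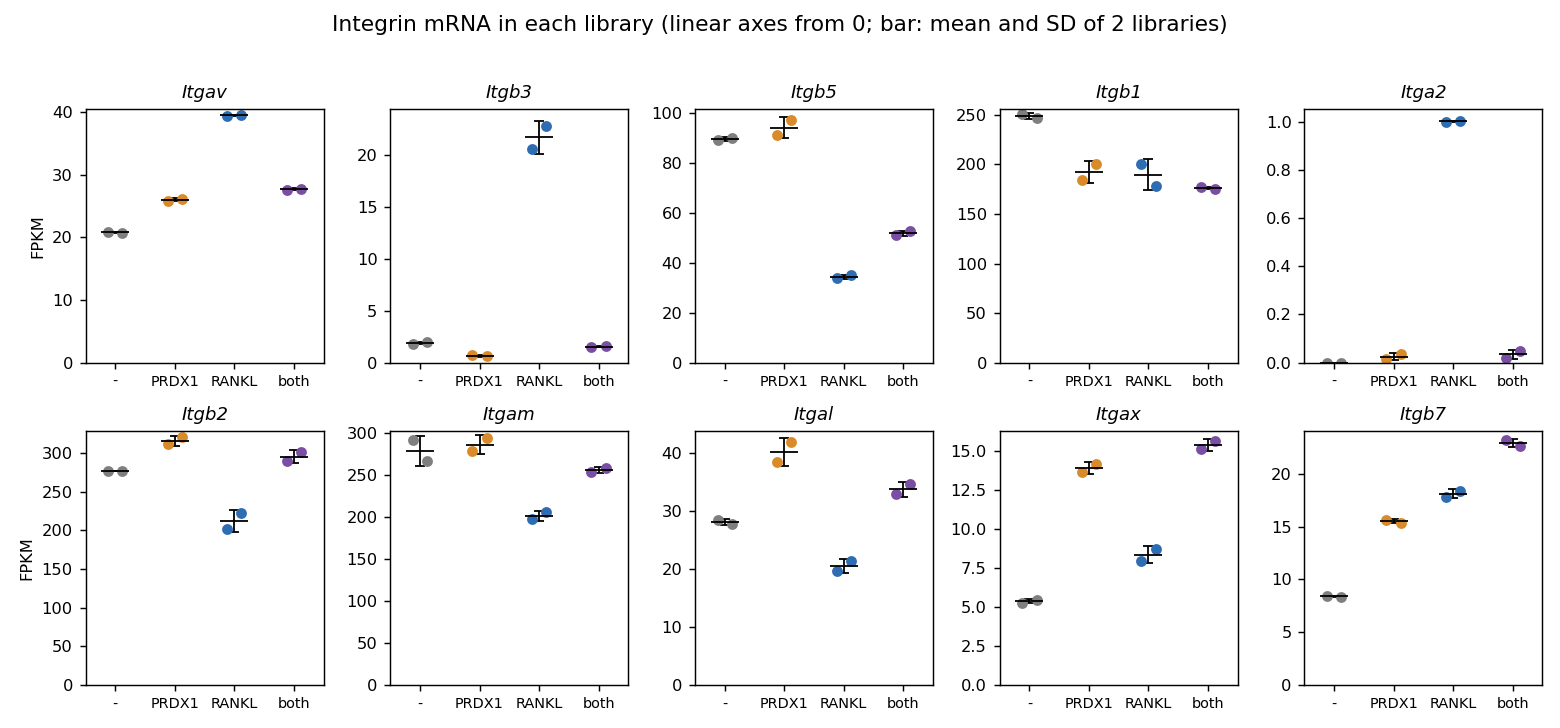
FPKM of the 10 integrin genes on linear axes from 0, with a dot per library and the mean ± SD of 2 libraries, for no PRDX1 + no RANKL (-), PRDX1, RANKL and both. Itgb3 reached 20.55 and 22.82 FPKM with RANKL alone and stayed at or below 1.948 in the other 6 libraries, while Itgb5 was lowest with RANKL alone.

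Itga2 encodes alpha-2, which pairs with beta-1 as a collagen receptor. It was listed at 0 FPKM in both libraries with neither agent, at 0.014 and 0.036 with PRDX1, at 1.0 and 1.002 with RANKL, and at 0.021 and 0.047 with both. Its values were far from 0 in the RANKL libraries alone, which held 193 and 245 reads against at most 14 elsewhere. Its mean over the 8 libraries, 0.265 FPKM, was below the filter, so it was left out of the test. With a floor of 3 reads per library, RANKL raised it at least 69.9-fold, and the mean with RANKL alone was 29.4 times that with both agents. Fitted with no filter, limma gave 1.0 ± 0.03 for RANKL (adjusted p = 2.17e-06) and -0.95 ± 0.03 for PRDX1 beside RANKL (adjusted p = 1.19e-05).

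Itgb1, the beta subunit shared by the collagen, laminin and fibronectin receptors, passed the fold threshold in no comparison. It had 251.1 and 246.4 FPKM with neither agent, 184.1 and 200.0 with PRDX1, 200.4 and 178.4 with RANKL, and 177.0 and 175.2 with both. The group with neither agent was the highest, and the PRDX1 and RANKL groups overlapped. The differences from it were -0.37 ± 0.06 with PRDX1 and -0.39 ± 0.06 with RANKL (limma adjusted p = 0.00129 and 2.72e-04).

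Itgb2, the leukocyte beta subunit, and Itgam, its most abundant partner here, were among the highest members in every library. Itgb2 had 277.1 and 277.3 FPKM with neither agent, 311.6 and 320.7 with PRDX1, 202.2 and 222.8 with RANKL, and 289.3 and 301.5 with both. Itgam had 291.9 and 266.6, 278.6 and 294.3, 197.3 and 205.8, and 253.6 and 258.3 FPKM in the same order. Both genes were lowest with RANKL alone, and the 2 groups without RANKL overlapped for Itgam but not for Itgb2. With RANKL, limma gave -0.38 ± 0.05 for Itgb2 (adjusted p = 1.06e-04) and -0.47 ± 0.05 for Itgam (adjusted p = 3.15e-05). Beside RANKL, their differences with PRDX1 were 0.47 ± 0.05 and 0.34 ± 0.05 (limma adjusted p = 5.02e-05 and 5.40e-04). None of these differences reached 1.5-fold, save that Itgb2 did so under quantile normalization for PRDX1 beside RANKL (0.588). Itgam, on chr7:128062640-128118491, shares 3450 exon bases with the protein-coding gene Gm49368 on the same strand, so its reads may include that gene's.

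Itgal, whose product pairs with beta-2 as LFA-1, had the groups in the same order as Itgb2 at a lower level. Its values were 28.41 and 27.64 FPKM with neither agent, 38.39 and 41.85 with PRDX1, 19.69 and 21.38 with RANKL, and 32.81 and 34.62 with both. No groups overlapped, and each PRDX1 group stood above its counterpart without PRDX1. PRDX1 raised Itgal 1.64-fold beside RANKL (log2 fold change 0.69 ± 0.06, limma adjusted p = 1.84e-05). Without RANKL the difference was 0.50 ± 0.06 (limma adjusted p = 3.08e-04), under the fold threshold, and the 2 changes did not differ detectably (interaction 0.19 ± 0.09, limma adjusted p = 0.173).

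Itgax, which encodes the CD11c chain, and Itgb7 were the members raised by PRDX1 without RANKL. Itgax had 5.269 and 5.453 FPKM with neither agent, 13.62 and 14.16 with PRDX1, 7.959 and 8.722 with RANKL, and 15.11 and 15.63 with both. All 4 libraries with PRDX1 stood above all 4 without it. PRDX1 raised Itgax 2.59-fold without RANKL (log2 fold change 1.23 ± 0.07, limma adjusted p = 1.23e-06) and 1.84-fold with it (0.81 ± 0.07, limma adjusted p = 9.79e-06). The difference with RANKL alone was 0.55 ± 0.07 (limma adjusted p = 6.34e-05), a fold of 1.47 that passed the threshold with a pseudocount of 0.1, with limma voom on recovered reads and without the first no PRDX1 + RANKL library (0.627, 0.656 and 0.612).

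Itgb7 had 8.400 and 8.367 FPKM with neither agent, 15.63 and 15.36 with PRDX1, 17.82 and 18.41 with RANKL, and 23.22 and 22.64 with both. Each agent alone stood above neither, and both agents together were the highest, with no overlap. RANKL raised Itgb7 2.16-fold (log2 fold change 1.03 ± 0.06, limma adjusted p = 1.73e-07) and PRDX1 1.85-fold (0.81 ± 0.06, limma adjusted p = 6.00e-06). On top of the other agent the differences were smaller, 0.54 ± 0.06 for RANKL and 0.32 ± 0.06 for PRDX1 (limma adjusted p = 5.87e-05 and 0.00122), with an interaction of -0.49 ± 0.08 (limma adjusted p = 0.00183). Itgb7 was thus the one leukocyte member called higher with RANKL alone, while Itgb2, Itgam and Itgal were lowest in that group.

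The RefSeq table of promoters (GRCm38.p6, the assembly of mm10) held 7 of the 10 members, all but Itgb3, Itgb2 and Itgal. The bases up to the start of Itgav, Itgax and Itgb7 are shown because these were the members called higher in company, Itgav and Itgb7 with RANKL and Itgax and Itgb7 with PRDX1. Each run reads 5′ to 3′ along the gene and ends 1 base before the start, and capitals mark matches to any of the motifs given below it. Itgav lies on the plus strand (chr2:83724147-83724396), Itgax on the plus strand (chr7:128129300-128129549) and Itgb7 on the minus strand (chr15:102231936-102232185).
Itgav: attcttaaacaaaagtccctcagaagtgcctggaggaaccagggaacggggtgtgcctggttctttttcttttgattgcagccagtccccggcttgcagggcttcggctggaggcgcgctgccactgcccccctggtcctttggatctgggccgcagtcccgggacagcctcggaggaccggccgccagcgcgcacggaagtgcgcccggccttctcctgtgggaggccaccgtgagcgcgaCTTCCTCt
Itgax: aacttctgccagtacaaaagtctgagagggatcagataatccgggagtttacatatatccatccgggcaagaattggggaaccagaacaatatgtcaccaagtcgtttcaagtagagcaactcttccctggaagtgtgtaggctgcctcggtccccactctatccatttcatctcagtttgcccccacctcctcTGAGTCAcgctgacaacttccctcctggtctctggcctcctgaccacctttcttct
Itgb7: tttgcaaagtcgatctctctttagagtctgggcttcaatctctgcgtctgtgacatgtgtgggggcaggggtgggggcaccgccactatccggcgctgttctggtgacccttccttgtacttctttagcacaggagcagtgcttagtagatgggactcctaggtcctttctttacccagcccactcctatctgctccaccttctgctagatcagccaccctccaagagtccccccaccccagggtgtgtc

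The motifs searched on both strands were GGAAA (NFAT core), GAGGAAG (ETS factors), TGANTCA (AP-1) and GGANTTTCC (NF-kB), in the 250 bases before the start. The last one ends in the reverse complement of the first, so any match to it is also a match to GGAAA. Itgax held a single match, TGAGTCA, 56 to 50 bases before its start, and 6.75% of all 32851 promoters held a match to TGANTCA. Itgav held a single match to GAGGAAG on the reverse strand, 8 to 2 bases before its start, against 10.6% of promoters with one. Itgb7 and Itgb5 held no match to any of the 4. Of the rest, Itgam held 3 matches to GGAAA and 1 to GAGGAAG, Itgb1 and Itga2 held 1 match each to GGAAA, and of these 7 none held GGANTTTCC. Of all promoters, 55.6% held GGAAA and 1.07% GGANTTTCC. A match is a description of letters and not a bound site.

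Counted together, 2 of the 9 tested members rose and 1 fell with PRDX1 alone, where 3.80% and 1.99% of all 11700 genes did. With PRDX1 beside RANKL, 2 rose and 1 fell (6.03% and 4.17% of all genes). With RANKL alone, 3 rose and 1 fell (11.8% and 9.96%), and with RANKL beside PRDX1, 1 rose and 1 fell (4.52% and 3.98%). The split over all genes depended on scaling. For RANKL beside PRDX1, 53.2% of calls were higher as deposited, 41.8% under upper quartile scaling and 45.6% under quantile normalization, and for RANKL alone the shares were 54.3%, 46.3% and 45.2%. For the interaction, 2 members, Itgav and Itgb3, were lower (4.35% of all genes) and limma and voom each called 0 higher (4.50% of all genes). At an unadjusted limma p under 0.05, 4 were higher and 4 lower, a threshold at which all genes were not counted. Beside Itgav and Itgb3, a further 6 had an adjusted p under 0.05 with less than 1.5-fold. Thus 8 of the 9 passed on the adjusted p alone, as did 23.1% of all genes. The median log2 fold change of the tested members was 0.19, 0.34, -0.38 and -0.10 in the 4 comparisons, against -0.04, -0.06, 0.10 and 0.07 over all genes tested. The comparisons share libraries: both changes from no PRDX1 + no RANKL use the same control cultures, and the no PRDX1 + RANKL cultures enter the RANKL change and the PRDX1 change beside RANKL.

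**Figure D2:**
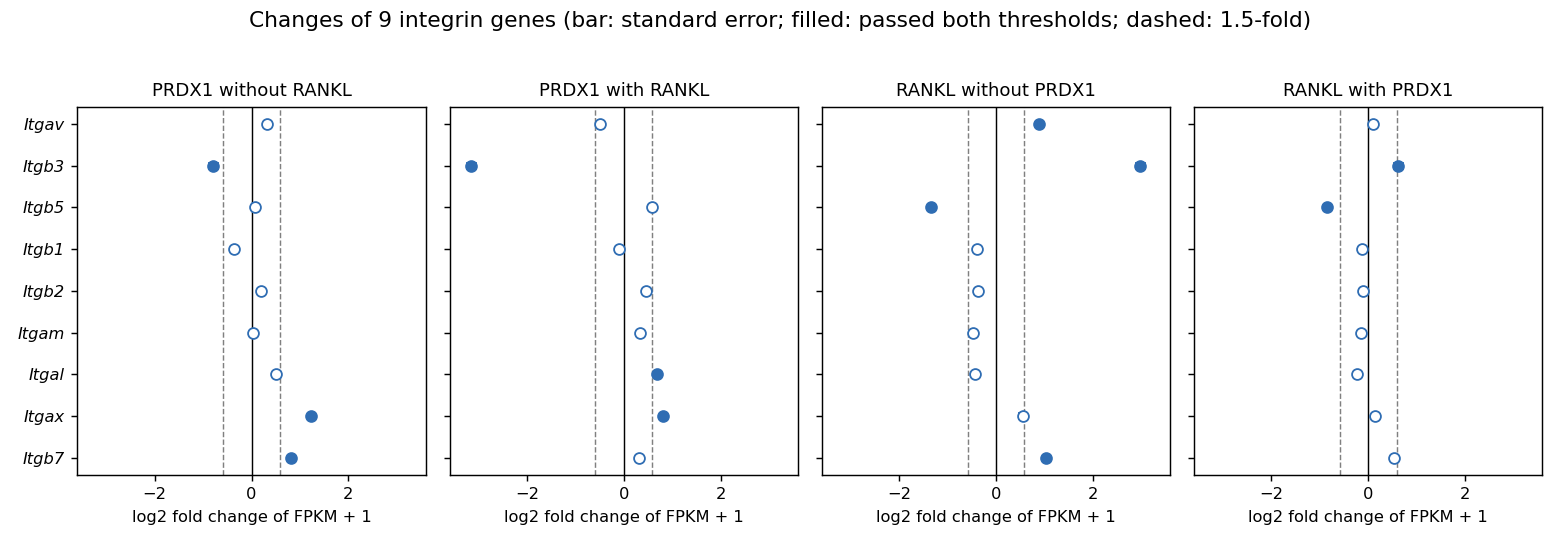
Log2 fold changes of FPKM + 1 for the 9 tested integrin genes in the 4 comparisons, with standard errors that are mostly shorter than the symbols. Filled symbols passed the adjusted p and the 1.5-fold threshold (dashed lines). Itgb3 lay at 2.98 for RANKL without PRDX1 and at -3.15 for PRDX1 with RANKL, and Itgax and Itgb7 lay at 1.23 and 0.81 for PRDX1 without RANKL.

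Ratios within a library put the alpha-v beta-3 pair beside the leukocyte beta-2 integrins without regard to library scaling. Itgb2 mRNA was 147 times as abundant as Itgb3 with neither agent, 472 times with PRDX1, 9.80 times with RANKL and 189 times with both. The log2 ratio of Itgb3 to Itgb2 was -7.20 ± 0.076 (SD, n = 2), -8.88 ± 0.19, -3.29 ± 0.0079 and -7.56 ± 0.0037. The log2 ratio of Itgav to Itgam spanned less, with -3.74 ± 0.085, -3.46 ± 0.043, -2.35 ± 0.040 and -3.21 ± 0.013 in the same order. RANKL alone gave the highest value of both ratios, and its libraries overlapped those of no other group.

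Against Itgb5, a comparison chosen after its values were seen, Itgb3 was 47.6 times less abundant with neither agent, 141 times with PRDX1, 1.59 times with RANKL and 33.2 times with both. Against Itgav, likewise chosen afterwards, Itgb3 was 11, 38.9, 1.82 and 17.7 times less abundant. Even with RANKL alone, both Itgb5 and Itgav mRNA exceeded Itgb3.

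**Figure D3:**
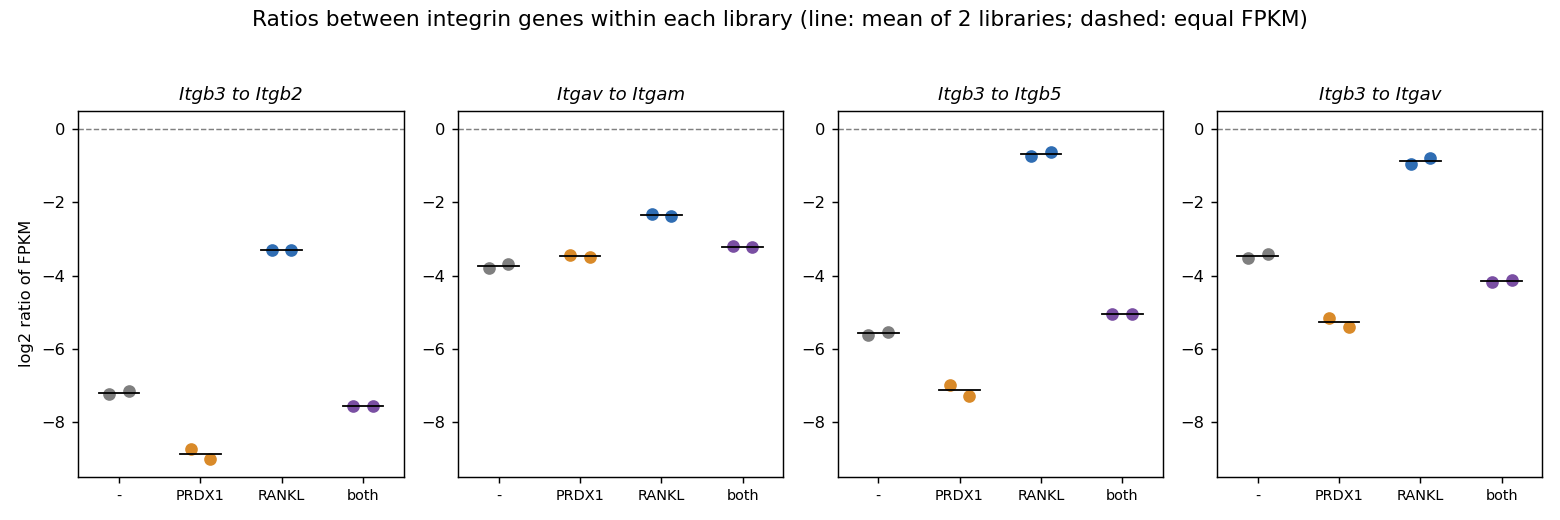
Log2 ratios of FPKM between integrin genes in each library (dots) with the mean of 2 libraries (line), for no PRDX1 + no RANKL (-), PRDX1, RANKL and both, and a dashed line at equal FPKM. The ratio of Itgb3 to Itgb2 was -7.20 with neither agent, -3.29 with RANKL and -7.56 with both.

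Among the 5 beta genes, Itgb2 and Itgb1 together took most of the summed FPKM. Itgb2 made up 44.3% ± 0.19 (SD, n = 2) of the sum with neither agent, 51.1% ± 0.76 with PRDX1, 44.6% ± 2.9 with RANKL and 53.9% ± 0.78 with both. Itgb1 made up 39.7%, 31.0%, 39.8% and 32.1%, so that Itgb2 stood further above Itgb1 in both PRDX1 groups. Itgb5 took 14.3%, 15.2%, 7.24% and 9.48% of the sum. The share of Itgb3 was 0.300% ± 0.017, 0.107% ± 0.016, 4.55% ± 0.32 and 0.284% ± 0.0034, and that of Itgb7 1.34%, 2.51%, 3.80% and 4.18%. The summed FPKM itself was 603.3 to 634.0 without RANKL, 474.9 and 477.5 with RANKL, and 542.2 and 553.6 with both.

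**Figure D4:**
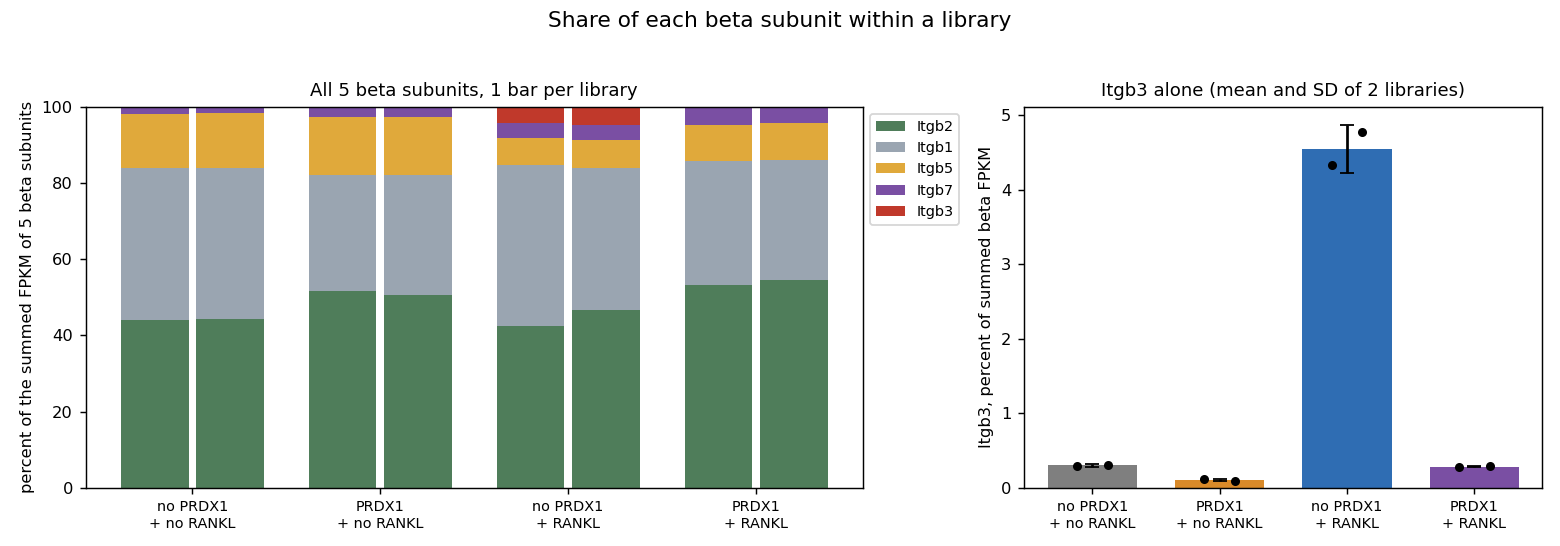
Percent of the summed FPKM of 5 beta subunit genes taken by each, as 1 stacked bar per library (left), and Itgb3 alone as the mean ± SD of 2 libraries with a dot for each (right). Itgb3 took 4.55% of the sum with RANKL alone and 0.300% or less in the other groups.

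The alpha partners of beta-2 kept pace with it, a sum taken after the values were seen. Itgam, Itgal and Itgax together had 1.02 to 1.18 times the FPKM of Itgb2 over the 8 libraries. Itgam was 83.7% to 89.7% of that alpha sum. Itgax was 1.62% and 1.82% of it with neither agent, 4.12% and 4.04% with PRDX1, 3.54% and 3.70% with RANKL, and 5.01% and 5.07% with both.

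In order of level, Itgb2, Itgam and Itgb1 led in every group and Itga2 was the lowest. The order from there down, Itgb5, Itgal, Itgav, Itgb7, Itgax and Itgb3, was the same in the 3 groups other than no PRDX1 + RANKL. With RANKL alone Itgav passed Itgb5 and Itgb3 stood between Itgb5 and Itgb7, its libraries overlapping those of Itgal. Neighbours whose libraries overlapped were otherwise Itgam and Itgb2 with neither agent, and Itgb2 with Itgam and Itgam with Itgb1 with RANKL alone.

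The genes whose log2(FPKM + 1) ran most closely with Itgb3 over the 8 libraries were Rhof (Pearson r = 0.9982), Coq9 (0.9976), Tubb6 (0.9972), Rpl32 (0.9962) and Ank (0.9956). Rhof, a small GTPase gene, had a mean of 3.63 FPKM with neither agent, 2.26 with PRDX1, 17.7 with RANKL and 3.57 with both. Rpl32 is a ribosomal protein gene with many near-identical copies, to which its reads may be split. Ank, which encodes a pyrophosphate transporter, had 24.9, 18.0, 63.1 and 20.7. For Itgb2 they included Rhbdf2 (0.9946), Sel1l3 (0.9925), Tmem184b (0.9924) and Phlda1 (0.9915). Rhbdf2, which encodes an inactive rhomboid protein, had 19.0, 22.8, 11.5 and 19.9 FPKM. The 8 points fall in 4 groups of 2, so these correlations describe likeness of group means. They do not measure the size of a change. Coq9 had means of 13.4, 11.9, 19.7 and 13.0 FPKM and Rpl32 942, 858, 1216 and 918. Neither of these was called in any comparison, nor were Tmem184b and Phlda1.

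Of 17 other integrin genes, 5 passed the filter, all of them alpha genes. Itga5, the fibronectin receptor alpha chain, had 26.18 and 29.66 FPKM with neither agent, 49.45 and 52.29 with PRDX1, 50.38 and 53.91 with RANKL, and 71.92 and 74.75 with both. It rose with either agent alone (0.85 ± 0.07 for PRDX1 and 0.88 ± 0.07 for RANKL, limma adjusted p = 1.33e-05 and 1.79e-06), and both together gave its highest libraries. Itga4, an alpha partner of beta-1 and beta-7, had means of 31.02, 23.21, 38.98 and 25.01 FPKM and fell with PRDX1 beside RANKL (-0.62 ± 0.06, limma adjusted p = 3.12e-05). It did not share the rise of Itgb7 with PRDX1, while Itgae, the other partner of beta-7, was below 0.2 FPKM in every library.

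Itga6, a laminin receptor chain, fell from 64.24 and 65.24 FPKM to 17.00 and 15.49 with RANKL (log2 fold change -1.93 ± 0.06, limma adjusted p = 1.89e-09) and to 41.26 and 42.61 with PRDX1 (-0.61 ± 0.06, limma adjusted p = 3.90e-05). Itga8, a further RGD-binding chain, fell from 9.181 and 8.533 to 1.179 and 0.995 FPKM with RANKL (-2.24 ± 0.09, limma adjusted p = 1.39e-08) and to 4.268 and 4.443 with PRDX1. Beside RANKL, PRDX1 raised Itga8 to 2.123 and 2.326 (0.63 ± 0.09, limma adjusted p = 2.97e-04). The interaction passed for both, at 0.82 ± 0.08 for Itga6 and 1.51 ± 0.12 for Itga8 (limma adjusted p = 7.81e-05 and 2.62e-05). Itga9 went from a mean of 1.304 to 0.109 FPKM with RANKL (-1.06 ± 0.11, limma adjusted p = 2.04e-05). The counts for these 5 genes were 1 higher and 2 lower for PRDX1 alone, 1 and 1 for PRDX1 beside RANKL, 1 and 3 for RANKL alone, and 2 lower for RANKL beside PRDX1, with medians of -0.40, 0.20, -1.06 and -0.55. The shares of all genes higher and lower were 3.80% and 1.99%, 6.03% and 4.17%, 11.8% and 9.96%, and 4.52% and 3.98%.

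**Figure D5:**
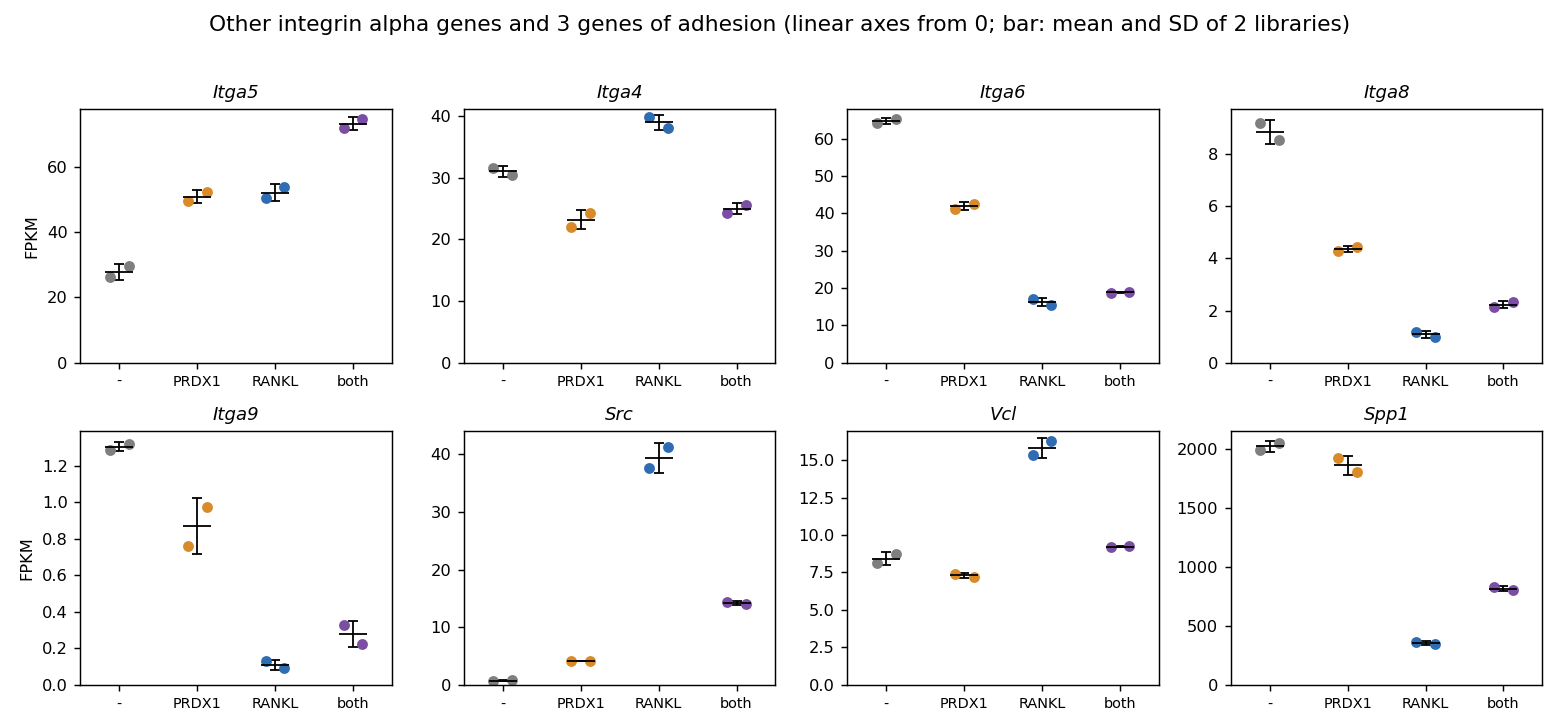
FPKM of the 5 other integrin alpha genes above the filter and of Src, Vcl and Spp1, on linear axes from 0, with a dot per library and the mean ± SD of 2 libraries. Itga6, Itga8, Itga9 and Spp1 were lowest with RANKL alone, where Src (37.59 and 41.25 FPKM) and Vcl (15.33 and 16.28) were highest.

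Of 23 genes that switch integrins on or tie them to actin, 18 were tested. In each PRDX1 comparison 1 rose and 1 fell, and with RANKL alone 2 rose and 2 fell, against 3.80% and 1.99%, 6.03% and 4.17%, and 11.8% and 9.96% of all genes. For RANKL beside PRDX1 limma and voom each called 0, where limma called 4.52% of all genes higher and 3.98% lower. At an unadjusted limma p under 0.05, 4 were higher and 5 lower, a threshold at which all genes were not counted. The medians over the list were -0.05, 0.01, -0.02 and 0.03. Vcl, which encodes the adhesion protein vinculin, had 8.119 and 8.739 FPKM with neither agent and 15.33 and 16.28 with RANKL (0.83 ± 0.07, limma adjusted p = 2.86e-06). PRDX1 beside RANKL lowered Vcl to 9.194 and 9.236 (-0.72 ± 0.07, limma adjusted p = 2.02e-05). Fyb, an adaptor of integrin activation in leukocytes, rose from 68.45 and 75.38 to 116.6 and 117.2 FPKM with PRDX1 beside RANKL (0.69 ± 0.06, limma adjusted p = 7.37e-06). Lims2 rose with each agent alone, Parvg fell with PRDX1 alone (-0.75 ± 0.07), and Zyx and Rassf5 fell with RANKL alone.

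Of 24 genes for signaling downstream of integrins, all tested, 4 rose with PRDX1 alone, 1 rose and 2 fell with PRDX1 beside RANKL, 5 rose and 5 fell with RANKL alone, and 5 rose and 2 fell with RANKL beside PRDX1. Over all genes 3.80% rose with PRDX1 alone, 6.03% rose and 4.17% fell with PRDX1 beside RANKL, 11.8% and 9.96% with RANKL alone, and 4.52% and 3.98% with RANKL beside PRDX1. The medians of the list were -0.02, 0.04, -0.02 and 0.01. Src, the kinase downstream of alpha-v beta-3 in osteoclasts and also one of the 14 osteoclast markers, had 0.698 and 0.798 FPKM with neither agent, 4.129 and 4.193 with PRDX1, 37.59 and 41.25 with RANKL, and 14.44 and 14.02 with both. Unlike Itgb3 it rose with PRDX1 alone (1.56 ± 0.07, limma adjusted p = 4.32e-07), and it fell with PRDX1 beside RANKL (-1.41 ± 0.07, limma adjusted p = 4.13e-07). Fgr, a Src family kinase gene of myeloid cells, went from 1.137 and 1.338 to 43.31 and 45.70 FPKM with RANKL (4.35 ± 0.08, limma adjusted p = 6.25e-11). Ptk2, the focal adhesion kinase gene, rose in all 4 comparisons, with means of 2.040, 4.817, 5.048 and 8.378 FPKM. Bcar1, a substrate of Src, rose with RANKL and fell with PRDX1 beside RANKL (1.84 ± 0.12 and -0.61 ± 0.12, limma adjusted p = 6.57e-07 and 0.00274).

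Of 26 genes for integrin ligands, 15 were tested and 4 rose with PRDX1 alone, 6 rose and 1 fell with PRDX1 beside RANKL, 4 rose and 1 fell with RANKL alone, and 3 rose and 1 fell with RANKL beside PRDX1 (medians 0.05, 0.25, -0.06 and -0.03). The shares over all genes, in the same order, were 3.80%, 6.03% and 4.17%, 11.8% and 9.96%, and 4.52% and 3.98%. Spp1, osteopontin, a ligand of alpha-v beta-3, ran opposite to Itgb3 between the RANKL groups. It had 1988 and 2050 FPKM with neither agent, 1917 and 1799 with PRDX1, 363.9 and 343.6 with RANKL, and 827.6 and 801.2 with both. RANKL lowered Spp1 (-2.51 ± 0.05, limma adjusted p = 9.25e-11) and PRDX1 beside RANKL raised it (1.20 ± 0.05, limma adjusted p = 4.76e-08). Among the ligands that rose with RANKL alone were Icam1, a ligand of beta-2 integrins, from 25.43 and 27.26 to 64.41 and 72.60 FPKM (1.34 ± 0.07, limma adjusted p = 9.67e-08), and C3, the source of another, from 1.259 and 1.240 to 23.11 and 24.97 (3.48 ± 0.07, limma adjusted p = 2.13e-10). C3 also rose with PRDX1, by 1.41 ± 0.07 without RANKL and 0.86 ± 0.07 beside it, while Icam1 differed by 0.02 ± 0.07 and 0.01 ± 0.07.

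Of 13 osteoclast markers tested, 4 rose with PRDX1 alone (Acp5, Dcstamp, Atp6v0d2 and Src), where Itgb3 fell. With PRDX1 beside RANKL 10 fell, with RANKL alone 11 rose, and with RANKL beside PRDX1 8 rose (medians 0.49, -2.69, 4.47 and 0.94). Of 12 macrophage markers, 1 rose and 2 fell, 8 rose, 10 fell, and 6 fell in the same order (medians 0.11, 0.89, -1.37 and -0.60). Against both lists stand 3.80% and 1.99%, 6.03% and 4.17%, 11.8% and 9.96%, and 4.52% and 3.98% of all genes higher and lower. The part of these shifts in the changes of the integrin genes was not tested.

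Itgb3 is also a platelet integrin gene, and 7 of 10 platelet and megakaryocyte markers, its platelet partner Itga2b among them, were under 0.5 FPKM in every library. The summed level of that list, nearly all of it Pf4, was 592 to 675 with neither agent, 765 to 812 with PRDX1, 40.5 to 44.5 with RANKL and 243 to 266 with both. The low markers did not move alike. In the same order, Itga2b, with 10 to 35 reads per library, had means of 0.0880, 0.112, 0.179 and 0.221 FPKM. Gp1ba had 0.272, 0.171, 0.444 and 0.305, Gp1bb 0.255, 0.115, 0.0950 and 0.0850, and Gp5 0.0570, 0.0460, 0.0265 and 0. The part of platelet or megakaryocyte RNA in the level of Itgb3 was not tested. Of its 2 tested members, Pf4 and Ppbp, both fell with RANKL alone and rose with PRDX1 beside RANKL, and Pf4 fell for RANKL beside PRDX1. CD11c is a dendritic cell marker as well. The sum of 10 other dendritic cell markers was 13.7 to 15.0, 15.4 to 16.0, 11.7 to 12.6 and 16.6 to 19.7 FPKM, with 2, Xcr1 and Clec9a, under 0.5 everywhere. Of the 5 tested, 2 rose with PRDX1 alone (Ccr7 and Siglech) and Ccr7 rose in each other comparison. Ccr7 had 4 reads in each library with neither agent. Limma called 0 of them lower, while voom called 1 lower with PRDX1 alone and 2 with RANKL alone. Cd209a, also on the list, had means of 1.25, 0.602, 0.544 and 0.460 FPKM. Higher calls made up 3.80%, 6.03%, 11.8% and 4.52% of all genes in the 4 comparisons and lower calls 1.99%, 4.17%, 9.96% and 3.98%.

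Beside Itgb7, all 10 mast cell and basophil markers were under 0.5 FPKM in every library, 6 of them listed at 0 throughout, with sums of 0.148 to 0.595. Of 10 lymphocyte markers 8 were under 0.5 FPKM everywhere and 2, Cd3e and Ncr1, at 0, and the sum lay between 0.617 and 2.13. Beside Itgal and Itgax, the summed level of 10 neutrophil markers was also higher with PRDX1, at 8.47 to 12.9, 39.9 to 44.8, 16.8 to 18.3 and 35.3 to 38.9 FPKM, led by S100a8 and S100a9, with Ly6g and Ltf under 0.5 throughout. Of 6 tested in limma, 4 rose with PRDX1 alone, 3 with PRDX1 beside RANKL and 1 with RANKL alone, against 3.80%, 6.03% and 11.8% of all genes. The sum of 10 stromal markers was 8.15 to 11, 17.3 to 17.5, 8.04 to 10.0 and 16.3 to 20.0, and of 4 tested Col1a1 and Col1a2 rose with PRDX1 in both settings, where 3.80% and 6.03% of all genes did. The part of lymphocyte, neutrophil or stromal RNA in the changes of the integrin genes was not tested.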

How the data were processed

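RNA of 8 mouse cultures was sequenced as paired 100-base reads. The deposited table gives 1 FPKM value per gene and library, which the authors made with HOMER (exon reads on either strand, 1 transcript per gene, mm10) from HISAT2 alignments, whose version is not given in the sources used here. The submitters' processing notes also name DESeq2. The values were whole reads times a constant within 0.1 read for 100.0% of the 3971 to 6970 genes checked per library, and 24542578 to 41712973 reads per library lay on genes. The number of per-sample columns left unused was 0.

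From the FPKM, limma 3.58.1 in R 4.3.3 was fitted to log2(FPKM + 1) with 1 mean per group and eBayes with trend, which leaves 4 residual degrees of freedom, and p-values were adjusted by Benjamini-Hochberg over 11700 genes with a mean of at least 0.5 FPKM. The procedure was tested on simulated data. A fold on this scale understates changes of low genes, so ratios of mean FPKM are given too. The p-values of limma assume that spread is shared between the groups. Ratios used a pseudocount of 0.01. Floors of 3 reads cover counting error only.

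The 10 integrin genes, the lists and the marker sets were chosen with earlier results of these data known. Named were all 10 integrin genes in every library, every other integrin gene called in any comparison, up to 3 called genes of largest change per list and comparison, and the 5 genes most correlated with Itgb3 and with Itgb2. One of these genes is not reported here. Lims2, Parvg, Rassf5 and other genes named only as part of a count came from the same lists. Vcl, Src and Spp1 were picked for plotting after their values were seen. Protein sequences were planned but are not analysed here. Alternatives were quantile normalization, upper quartile scaling, a pseudocount of 0.1, no filter, a filter of 1 FPKM, the replicate number as a block, voom on recovered reads, the 4 libraries of a comparison alone, and leaving out each library.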

Additional observations from a re-analysis of the deposited data

Results flagged for a closer look

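The change with PRDX1 differed between cultures with and without RANKL for 8 of the 9 tested integrin genes at an adjusted p under 0.05 (limma interaction, log2 scale, the change with RANKL minus the change without it), as it did for 23.1% of all 11700 genes. It was negative for 4 genes, at -2.36 for Itgb3, -0.81 for Itgav, -0.49 for Itgb7 and -0.42 for Itgax (limma adjusted p = 1.87e-06, 3.51e-05, 0.00183 and 0.0123). It was positive for the other 4, at 0.51 for Itgb5, 0.31 for Itgam, 0.29 for Itgb2 and 0.27 for Itgb1 (limma adjusted p = 6.80e-04, 0.0153, 0.0183 and 0.0449). When 1 library was left out or the filter or scaling changed, the adjusted p rose above 0.05 in 8 of 15 alternatives for Itgb1 (up to 0.163), in 3 each for Itgam (up to 0.0681) and Itgb2 (up to 0.0812) and in 1 for Itgax (0.0575). Of the 8 genes, Itgb3 and Itgav also passed the 1.5-fold threshold. Itgal, at 0.19, did not pass (limma adjusted p = 0.173). Groups of 2 libraries are too small for a check of single outlying libraries.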

How the results depend on the processing

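Over the fold changes of the 9 integrin genes, 697 of 711 alternative values kept their direction and their call, which needs both the adjusted p and the fold, 3 lost a call, 9 gained one and 2 changed sign. The adjusted p alone changed its side of 0.05 in 32 of the 711, among them Itgb1 for the interaction (0.0449, up to 0.163) and Itgb2 for PRDX1 without RANKL (0.0200, up to 0.119). With PRDX1 beside RANKL, quantile normalization called 5 members against 3, adding Itgb2 and Itgb5. With RANKL beside PRDX1, quantile normalization and upper quartile scaling each called 1 against 2, Itgb3 being lost, and leaving out 1 library gave 1 to 2, the loss coming without the second PRDX1 + no RANKL library. The cause was not tested. Itgam for PRDX1 without RANKL, which was not called, ranged from -0.028 to 0.10 on the log2 scale when 1 library was left out, the negative values coming without the second no PRDX1 + no RANKL library (-0.028) or the second PRDX1 + no RANKL library (-0.002). Under quantile normalization the share of Itgb3 with both agents was 0.2641%, and the log2 ratio of Itgb3 to Itgb2 was -7.102 with neither agent, -3.313 with RANKL and -7.693 with both; with a pseudocount of 0.1 the last was -7.480. The replicate numbers of the labels differ from the folder numbers in the file header for some libraries. Libraries of 2 groups with the same label number deviated from their group means with correlations of 0.01 to 0.10 over genes. These values cannot settle whether cultures were paired, since equal label numbers need not mark matching cultures. With the replicate block, 3, 3, 4 and 2 members were called in the 4 comparisons and 2 for the interaction, and no call changed. The lone library of a group is assumed to vary like the others when its fellow is left out. The number of libraries, 2 per group, limits the precision, as do the 124 to 469 reads of Itgb3 outside the no PRDX1 + RANKL group and at most 14 reads of Itga2.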
